A study of Cannabis sativa with 6 samples.

Results

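Among flower libraries of feral hemp (Cannabis sativa), 105 genes were shifted in the same direction in both the female and the male library of one location, and 94 of them were shifted in the Merick libraries. The genes were chosen by their measured levels, in CPM, the count of a gene per 1000000 gene counts of its library. A gene had to reach 1 CPM in each of 6 libraries, and both libraries of one location had to be at least 2 times, or at most 0.5 times, each of the other 4. Of 29777 gene rows, 14252 reached the floor of 1 CPM, and 0.737% of these met the rule. Of the 105 genes, 28 were higher and 77 were lower in the location they belong to. These shifts chose the genes, so they are described below without a test.

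Hemp is dioecious: female plants bear flowers with pistils, male plants bear flowers with stamens and pollen, and sex goes with an X and Y chromosome pair. Feral hemp descends from plants that escaped from cultivation and now seeds itself, so that plants from separate places can differ in inherited gene activity. Flower organs differ strongly in the genes they use, and a difference between a female and a male library therefore mixes organ and place. A shift found in flowers of both sexes from one place is not a plain difference between the sexes.

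The study measured RNA by sequencing in 3 female and 3 male flower libraries, with 1 library per sex from Knox, Madison and Merick in Nebraska, as the labels spell them. Per the labels, every library came from flowers of potted plants, with no treatment given, kept in growth chamber and greenhouse under a shortened day that induced flowering. The sources used here do not give genotype or plant age, nor whether single plants or pools made up a library, or whether the libraries of a location shared a chamber. A location is held by 1 female and 1 male library, so what place contributes and what those individual libraries contribute cannot be told apart. Whole flowers were measured, so fewer cells of a type and less RNA per cell cannot be told apart either.

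The shallowest library, the Knox female, held 26945432 reads in genes and the deepest, the Merick male, 46045338, so that 1 CPM was worth 26.9 to 46.05 reads. Reads without an assigned gene made up 14.9% to 18.1% of those listed. The Merick male stood apart among the males: 2249 genes met the rule for the Knox and Madison males taken as a pair, 15.8% of the genes at the floor, against 13 and 93 genes for the male pairs that include Merick. The 3 female pairs gave 53 to 226 genes. Those pairs share a sex, so their counts can hold differences between female and male flowers. A gene enters them only if the pair also clears the remaining library of its own sex.

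The rule found 94 genes for the Merick female and male, 24 higher (0.168% of the genes at the floor) and 70 lower (0.491%). It found 7 genes for Knox, 2 higher (0.014%) and 5 lower (0.0351%), and 4 genes for Madison, 2 higher (0.014%) and 2 lower (0.014%). The same rule was run on the 6 female and male pairs whose locations differ, which share neither sex nor location in the labels. Those pairs gave 2 to 23 genes each, with a mean of 13.2. The Knox and Madison counts lay inside that range and the Merick count lay above it. These pairs are not matched: only the Merick pair is set against 4 libraries with no Merick library among them. Over the 14252 genes the median Knox to Madison difference, without regard to sign, was 0.26 log2 units in females and 0.28 in males. It was 0.40 and 0.69 for Knox to Merick, and 0.42 and 0.66 for Madison to Merick. The part of this imbalance in the counts was not tested.

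The different-location pairs without a Merick library gave 2 genes (Knox female with Madison male) and 9 genes (Madison female with Knox male). The pairs with the Merick male gave 18 and 11 genes, and those with the Merick female gave 23 and 16. The Merick female with another male was mostly lower, in 17 of 23 and in 15 of 16 genes. When the pair only had to lie above or below each of the other 4, with no minimum fold, the Merick pair held 2206 genes, which is 15.5% of those at the floor. That looser requirement gave 598 genes for Knox, 423 for Madison and 486 to 1123 for the different-location pairs.

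**Figure D1:**
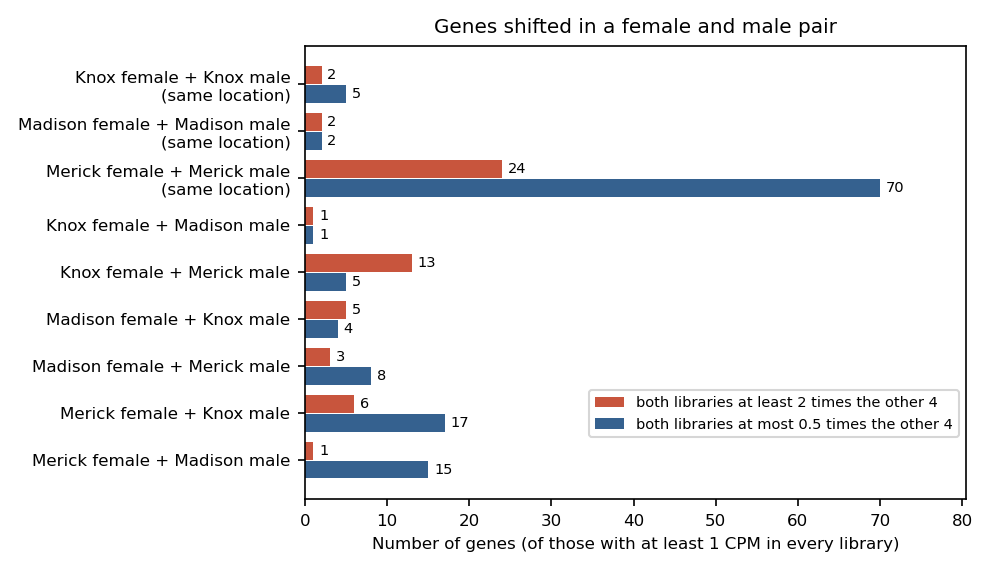
Number of genes (horizontal axis) that met the rule for each pair of a female and a male library (vertical axis), split into genes where both libraries of the pair were at least 2 times each of the other 4 and genes where both were at most 0.5 times each. The Merick pair holds 24 and 70 genes, and no pair from different locations holds more than 13 higher or 17 lower genes.

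The split into higher and lower Merick genes depended on how the libraries were scaled. Of the Merick genes, 74.5% were lower on the sum of gene counts, against 56.1% (50 higher, 64 lower) with trimmed mean of M-values (TMM) scaling and 65.04% (43 higher, 80 lower) with relative log expression scaling. Over the 14252 genes, the median of the Merick female lay 0.16 below the mean of the other females on the log2 scale, and that of the Merick male 0.15 above the mean of the other males. TMM moved those medians by 0.22 and -0.12, and relative log expression by 0.21 and -0.25. All 24 higher Merick genes and 57 of the 70 lower ones met the rule under each of the 3 scalings. Leaving out 1 library loosens the rule and raised the total from 105 to 645 (without the Knox female), 441 (Madison female), 471 (Merick female), 295 (Knox male), 339 (Madison male) or 663 (Merick male). Without the Knox male the Merick pair held 110 genes, and the highest different-location pair with both libraries held 108.

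**Figure D2:**
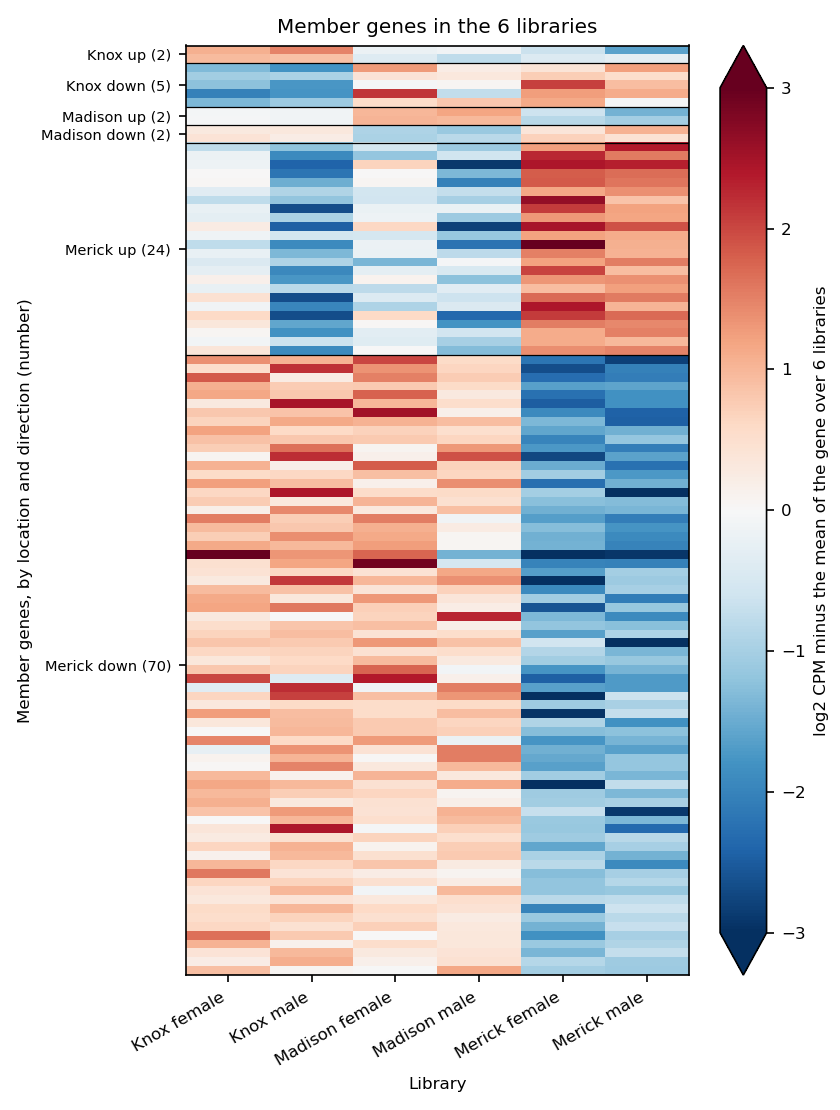
Level of each of the 105 genes (rows, grouped by location and direction, widest gap first) in the 6 libraries (columns), as log2 CPM minus the mean of the gene over the libraries; colours end at -3 and 3. The 24 higher and 70 lower Merick genes fill most of the picture, with both Merick libraries on the same side of the gene mean. The other 4 libraries all lie on the opposite side for 14 of the 24 higher and 59 of the 70 lower genes.

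No role can be given for these genes, because the count tables and the RefSeq gene table of the Pink pepper assembly hold identifiers and gene types without descriptions. They are named by their NCBI LOC symbols. The gap of a gene is the lowest library on its high side divided by the highest library on its low side. It has a counting interval (95%, exact, from the counts of those 2 libraries) that covers counting error only.

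Lower expression in both Merick libraries went furthest in LOC115697305, listed as protein coding on chromosome 7. It stood at 2.40 CPM in the Merick female and 1.59 in the male, against 28.3 and 43.9 in the Knox and Madison females and 22.7 and 16.3 in the Knox and Madison males. Its gap was 6.79 (5.46 to 8.53), the widest of the 105 genes, and the mean of the other 4 libraries was 13.9 times the mean of the Merick pair. The Merick female and male were close to each other and far below every other library, among which the Madison libraries differed most between the sexes.

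LOC115723422, protein coding on chromosome 9, stood at 1.27 CPM in the Merick female and 1.98 in the male. Its levels elsewhere were 11.6 (Knox female), 20.5 (Madison female), 36.6 (Knox male) and 12.6 CPM (Madison male), a gap of 5.88 (4.64 to 7.51). The Knox male was the highest library for this gene, and the Knox female and Madison male were close together. LOC115723006, protein coding and also on chromosome 9, stood at 3.46 and 4.02 CPM in the Merick female and male, 59.9 and 47.9 CPM in the other females and 20.01 and 28.7 CPM in the other males. Both females outside Merick were above both males outside Merick, while the Merick libraries had nearly the same level.

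LOC115722548, listed as a pseudogene on chromosome 9, was the most even of these. It stood at 6.10 and 6.25 CPM in the Merick female and male and between 27.9 and 39.4 CPM in the other 4 libraries, a gap of 4.45. Reads of a pseudogene can be shared with its parent gene, so its count is uncertain. A further 4 lower Merick genes had a gap of at least 4: LOC115701358, LOC115715005, LOC115708307 and LOC115719427, chosen here after their values were seen. LOC115708307 on chromosome 1 had the largest loss in CPM among them, from between 62.5 and 323 CPM in the other libraries to 15.05 in the Merick female and 10.5 in the male.

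**Figure D3:**
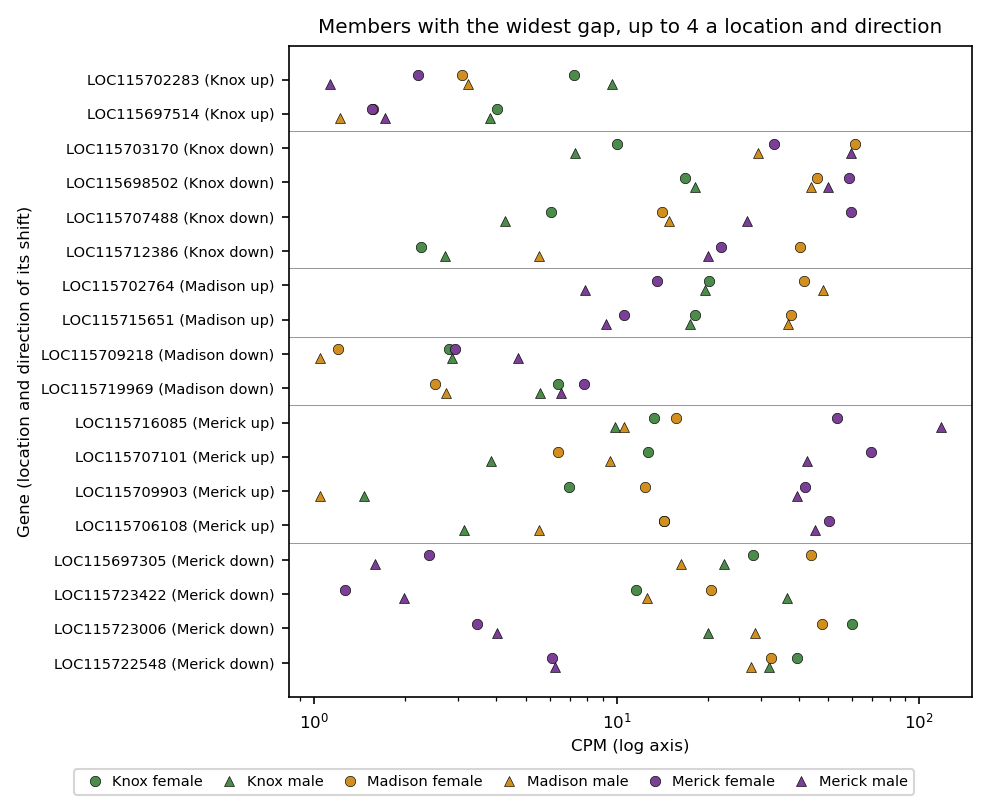
CPM (horizontal, log axis) of up to 4 genes with the widest gap for each location and direction (vertical axis), with 1 point per library, circles for female and triangles for male, coloured by location. In each row the 2 points of the named location stand clear of the other 4; the widest separation is that of LOC115697305, at 2.40 and 1.59 CPM in the Merick libraries and at 16.3 CPM or more in the others.

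Over the 70 lower Merick genes the gap ran from 2.01 to 6.79 with a median of 2.51, and 15 genes had a gap of at least 3. The mean of the other 4 libraries was 2.26 to 54.2 times the Merick mean, with a median of 4.87. The extreme was LOC115718794 on chromosome 2, at 1.99 and 2.28 CPM in the Merick female and male. It ranged from 6.41 CPM (Madison male) to 356 CPM (Knox female) elsewhere, so its gap of 2.81 was far smaller than the ratio of means. The most abundant lower gene was LOC115710226 on chromosome 3, at 67.9 CPM in the Merick female and 323 in the male against 734 to 1210 CPM in the others. The lowest library of these genes held between 41 and 2627 reads.

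Of the 24 higher Merick genes, LOC115716085 on chromosome 5 had the widest gap, 3.42 (3.11 to 3.76). It stood at 53.5 CPM in the Merick female and 118 in the male, against 13.3, 15.7, 9.84 and 10.6 CPM in the Knox female, Madison female, Knox male and Madison male. LOC115707101 on chromosome 1 stood at 69.3 and 42.5 CPM in the Merick female and male, 12.7 and 6.40 in the other females and 3.84 and 9.50 in the other males. The Merick female was the higher of its location for this gene, and the Merick male for the first.

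LOC115709903 on chromosome 3 stood at 41.8 and 39.4 CPM in the Merick female and male, 6.98 and 12.4 CPM in the Knox and Madison females, and 1.46 and 1.05 CPM in the Knox and Madison males. LOC115706108 on chromosome 1 showed the same layout, at 50.3 and 45.2 CPM in Merick, 14.3 and 14.4 in the other females, and 3.12 and 5.56 in the other males. In both genes the sexes were level in Merick, and the males of the other locations lay below their females. LOC115719756 on chromosome 2 was the most abundant higher gene, at 529 and 606 CPM in Merick and 125 to 187 CPM elsewhere. The gaps of the 24 genes ran from 2.05 to 3.42 with a median of 2.38, and 4 reached 3.

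LOC115703170 on chromosome 3 had the widest gap of the 5 lower Knox genes, 2.93 (2.57 to 3.36). It stood at 10.02 CPM in the Knox female and 7.29 in the Knox male, 61.1 and 29.4 CPM in the Madison female and male, and 33.02 and 59.6 CPM in the Merick female and male. LOC115698502 on chromosome 8 stood at 16.8 and 18.2 CPM in Knox, with the other 4 libraries between 43.7 and 58.5 CPM. LOC115707488 on X stood at 6.09 and 4.26 CPM in Knox, 14.1 and 14.8 in Madison and 59.4 and 27.04 in Merick, so that the 3 locations came in the same order in both sexes. LOC115712386 and LOC115724732 had gaps of 2.06 and 2.02.

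The higher Knox genes were LOC115702283 on chromosome 3 and LOC115697514 on chromosome 7, both of low level. LOC115702283 stood at 7.24 and 9.67 CPM in the Knox female and male and between 1.13 and 3.22 CPM elsewhere. LOC115697514 stood at 4.01 and 3.82 CPM in Knox and between 1.22 and 1.72 elsewhere. Its lowest library held 50 reads.

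Of the 4 Madison genes, 3 lay on X in the Pink pepper assembly and LOC115715651 was not found in the table. X held 1655 of the 14252 genes at the floor, and 4 genes are too few to compare with that share. LOC115702764 stood at 41.6 and 47.9 CPM in the Madison female and male, 20.3 and 19.6 in Knox and 13.6 and 7.84 in Merick. LOC115715651 stood at 37.8 and 36.7 CPM in Madison, 18.1 and 17.5 in Knox and 10.6 and 9.21 in Merick. In both sexes of both higher genes Knox lay between Madison and Merick. The Merick male of LOC115702764 was below the Merick female by 0.80 on the log2 scale, which is more than the 0.57 between the Knox and Merick females.

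The lower Madison genes were LOC115709218, at 1.20 and 1.05 CPM in Madison and 2.78 to 4.71 elsewhere, and LOC115719969, at 2.51 and 2.73 CPM in Madison and 5.58 to 7.81 elsewhere. Of the 11 Knox and Madison genes, 6 met the rule under each of the 3 scalings: LOC115703170, LOC115698502, LOC115707488, LOC115712386, LOC115697514 and LOC115709218. Neither higher Madison gene did.

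At the threshold, the members nearest to a gap of 2 were all lower in Merick: LOC115704694 at 2.014, LOC115700762 at 2.019 and LOC115697849 at 2.019. The genes nearest outside it were LOC115716060 at 1.995 and LOC115722326 at 1.994, both lower in Merick, and LOC115722935 at 1.995, higher in Merick. LOC115697849 stood at 52.2 and 81.7 CPM in the Merick female and male and 165 to 262 elsewhere, and LOC115716060, outside the rule, at 36.2 and 45.2 CPM and 90.3 to 147. These values differ little in kind. Of the 105 genes, 53 had a gap below 2.4, and the counting interval of the gap lay wholly at or above 2 for 60. For all 105 it lay above 1. The rule had already set every gap at 2 or more, so these tallies are not support for the shifts.

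The size of the shift was measured in each sex alone, as the log2 CPM of the named location minus the mean log2 CPM of the other 2 locations. In the lower Merick genes the median was -2.11 in females (range -6.17 to -1.04) and -2.28 in males (-4.67 to -1.10). Of these 70 genes, 45 had shifts within 1 log2 unit of each other in the 2 sexes, 41 moved further in the female and 29 further in the male. The higher Merick genes had medians of 1.76 in females (1.21 to 4.47) and 2.77 in males (1.78 to 4.99), and 18 of 24 moved further in the male. The male shift minus the female shift equals the Merick difference between the sexes minus the mean of those in Knox and Madison. The larger male shifts are therefore not separate from the low Knox and Madison males described below. Across the lower genes the female and male shifts correlated at r = 0.08 (70 genes), and across the higher genes at r = 0.0045 (24 genes). Genes of a set share the 6 libraries and are not independent, and the rule removes small shifts, so these values only describe the sets.

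**Figure D4:**
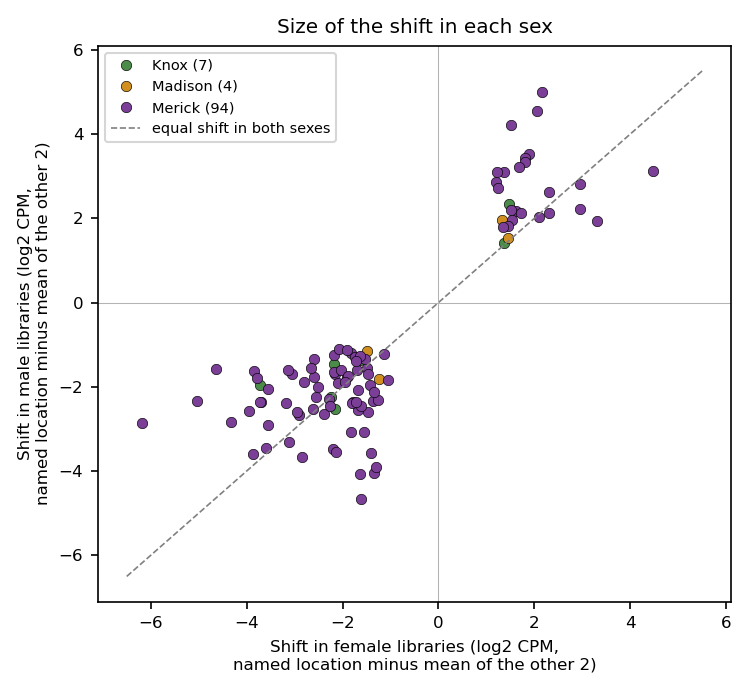
Shift of each of the 105 genes in the female libraries (horizontal axis) and in the male libraries (vertical axis), in log2 CPM of the named location minus the mean of the other 2, coloured by location, with a dashed line of equal shift. Most higher Merick genes (18 of 24) lie above the line, and the lower Merick genes scatter around it, with 41 of 70 further from 0 in the female.

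The difference between Knox and Madison enters the rule for Merick only through the bound that their 4 libraries keep to one side. It can be read in each sex. In the lower Merick genes the sign of Knox minus Madison was the same in both sexes for 35 of 70 genes (50.0%), and in the higher ones for 9 of 24 (37.5%). Over the 14252 genes the same held for 47.6%. The correlation of the female with the male difference was r = -0.02 over the 70 lower genes, -0.51 over the 24 higher ones and -0.03 over the 14252. The Knox male was above the Madison male for 51 of the 70 lower genes (72.9%, median difference 0.31 log2 units) and for 8 of the 24 higher ones (33.3%, median -0.39), against 55.8% and 0.06 over the 14252. The females showed less of a one-sided order, with Knox above Madison for 32 of 70 (45.7%) and 13 of 24 (54.2%), against 49.5%. Without regard to sign, the median male difference was 0.45 in the lower and 0.53 in the higher genes, against 0.28 over the 14252. These values describe the sets, and no test was made of them.

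The difference between male and female in Knox and Madison likewise enters the rule only through the bound that the other 4 libraries keep to one side. In 20 of the 24 higher Merick genes (83.3%) the Knox and Madison males were each below the female of their own location, and in none were both above. Over the 14252 genes, both males were below for 48.1% and above for 36.0%. The median male minus female difference of the higher Merick genes was -1.69 for Knox, -0.61 for Madison and -0.14 for Merick (log2 CPM). The highest library outside Merick was a female for 23 of the 24 genes. The Merick female and male lay within 1 log2 unit for 19 of the 24 (79.2%), against 73.2% of the 14252, so that closeness was near that of genes at large. The Merick male stood apart from the other males over many genes, and its part in this result was not tested.

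The lower Merick genes were balanced. The Knox and Madison males were both below their females for 24 of 70 genes (34.3%) and both above for 23 (32.9%), and the median male minus female difference was 0.09 for Knox, -0.15 for Madison and 0.06 for Merick. The Merick female and male lay within 1 log2 unit for 56 of 70 genes, against 73.2% of the 14252. LOC115722334 on chromosome 9 had the widest such difference, at 1.06 CPM in the Merick female and 12.9 in the male, 31.8 and 37.7 CPM in the other females and 83.9 and 51.0 in the other males.

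**Figure D5:**
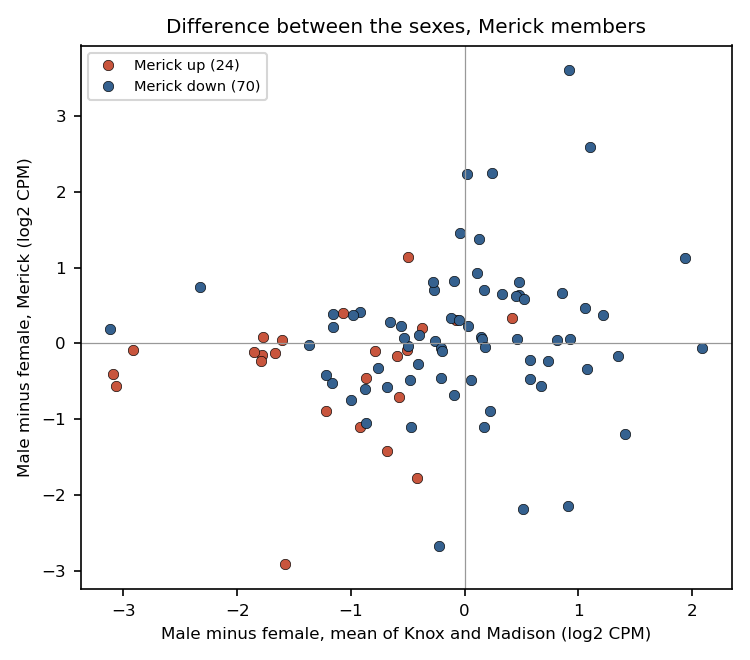
Male minus female difference of the 94 Merick genes in Merick (vertical axis) and averaged over Knox and Madison (horizontal axis), in log2 CPM, with 1 point per gene. The higher Merick genes lie mostly left of 0, with both the Knox and the Madison male below the female for 20 of 24, and the lower ones lie on both sides.

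Male and female flowers were compared with edgeR's quasi-likelihood test in a model with location, over all genes that passed its filter. It called 2123 of 19276 genes (11.0%) at an adjusted p under 0.05, and 0 of the 105. The rule keeps the sexes of these genes from separating over all 6 libraries, because both libraries of a location must clear the other 4. It sets no limit on the difference between the sexes within a location. The genes were chosen by their levels, so the low count is only a description, and the part of the rule in it was not tested. At an unadjusted p under 0.05 there were 17 of 105 (16.2%) against 37.1% of all tested genes, and DESeq2 called 12 of the 105 (11.4%) against 7250 of all 19276 genes (37.6%). Without the Merick female edgeR called 14 of the 105 and 6475 genes in all (32.5% of those tested), and without the Merick male 16 and 6580 (33.2%). Leaving out the Knox or Madison female, or the Knox or Madison male, gave 0 of the 105 with 0 (0%), 185 (0.929%), 0 (0%) and 82 (0.417%) genes in all.

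The smallest adjusted p among the 105 was that of LOC115707549, lower in Merick, on chromosome 1 (log2 male minus female 1.74, SE 0.39, adjusted p = 0.057 by edgeR). It stood at 1.68 and 3.67 CPM in the Merick female and male, 11.8 and 12.5 in the other females and 51.5 and 41.6 in the other males, so the male was above the female at every location. LOC115708343, higher in Merick and also on chromosome 1, went the other way (-1.98, SE 0.50, adjusted p = 0.070 by edgeR). Its levels were 149 CPM in the Merick female and 19.7 in the male, 5.49 and 8.23 in the other females and 2.50 and 2.02 in the other males. In neither gene did the sexes separate over all 6 libraries, but the rule fixes this. Both libraries of a member's location must lie on the same side of the other 4.

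Differences between locations over the whole table are given only as background, since the rule used the same contrast. With sex in the model, edgeR's quasi-likelihood test of the location term called 0 of 19276 genes (0%), with 1336 at an unadjusted p under 0.05 and a smallest adjusted p of 0.713. DESeq2's likelihood-ratio test called 689 genes (3.57%). The model leaves 2 residual degrees of freedom.

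By gene type, 94 of the 105 genes (89.5%) were listed as protein coding, 2 as long non-coding RNA and 1 as a pseudogene, and 8 (7.62%) were not found in the Pink pepper table. Over the 14252 genes, 94.1% were protein coding, 0.81% long non-coding, 0.15% pseudogenes and 4.86% not found. The long non-coding RNAs were LOC115720801 and LOC115704694, both lower in Merick and on chromosome 1. LOC115720801 stood at 1.40 CPM in the Merick female and 6.58 in the male and at 15.8 to 25.5 CPM elsewhere. Of the 24 higher Merick genes, 4 (16.7%) were not found, against 3 of the 70 lower ones (4.29%).

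The Merick genes were spread over the chromosomes. Lower Merick genes made up 0.85% of the genes at the floor on chromosome 9 (10 genes), 0.69% on chromosome 1 (15 genes) and 0.63% on chromosome 8 (9 genes), and the lowest share was 0.26% on chromosome 3 (3 genes). On X there were 5 lower and 0 higher Merick genes among 1655 at the floor. Higher Merick genes made up 0.31% of those on chromosome 2 (4 genes), 0.23% on chromosome 1 (5 genes) and 0.23% on chromosome 7 (2 genes). No test was made of these shares.

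Few of the genes were neighbours. Of 66 lower Merick genes with a place on a chromosome, 6 (9.09%) had another lower Merick gene within 5 genes in the order of the assembly. Among the other 13312 placed genes at the floor, 3.07% had a lower Merick gene that close. The 19 placed higher Merick genes had no such neighbour, nor did the Knox or Madison genes, nor the genes of any different-location pair, sets of at most 17 placed genes.

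The 3 neighbouring pairs lay on chromosomes 1, 4 and 9. On chromosome 9, LOC115723006 and LOC115722833 were 4 genes apart, and LOC115722833 stood at 2.84 and 1.69 CPM in the Merick female and male and at 9.00 to 28.2 CPM in the other 4. The 3 genes between them were below the floor in at least 1 library. LOC115723269 had the same layout, at 0.67 and 1.24 CPM in Merick against 5.90 to 12.2 CPM elsewhere. LOC115707924 did not follow, at 8.77 and 12.8 CPM in Merick against 0.61 to 20.9 CPM elsewhere, and LOC115717410 had almost no reads, with at most 0.022 CPM in any library. On chromosome 4, LOC115715005 and LOC115715277 were adjacent. LOC115715005 stood at 1.11 and 1.76 CPM in Merick and 7.53 to 34.1 elsewhere, and LOC115715277 at 7.63 and 9.32 CPM in Merick and 19.6 to 55.4 elsewhere. On chromosome 1, LOC115707926 and LOC115704851 were 4 genes apart, at 7.03 and 5.82 CPM and at 2.46 and 3.21 CPM in the Merick female and male. The 3 genes between them did not follow: LOC115707928, for one, stood at 35.7 and 20.2 CPM in Merick and 22.1 to 36.1 elsewhere. Adjacent genes with similar sequence can share reads that the counting leaves out, and whether these pairs are copies of each other was not tested.

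Among the 6 genes of these tables that carry a common name, 3 reached the floor and none met the rule. CHS (LOC115724170), the chalcone synthase that starts flavonoid synthesis, stood at 1836 and 640 CPM in the Merick female and male, 638 and 545 in the other females and 148 and 225 in the other males, a gap of 1.002. The polyketide synthase locus listed as PKSG2 (LOC115699293) stood at 89.9 and 54.6 CPM in Merick, 47.1 and 57.2 in the other females and 2.11 and 8.24 in the other males. OAC (LOC115723438), olivetolic acid cyclase of cannabinoid synthesis, stood at 409 and 23.4 CPM in Merick, 327 and 49.8 in the other females and 1.54 and 4.09 in the other males. In all 3 the Merick library was the highest of its sex, without the Merick male clearing the other females by the required fold.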

How the data were processed

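The authors deposited raw counts of reads per gene for 6 flower libraries; the files also hold 5 closing rows of unassigned reads, named as htseq-count names them, which were left out. The sources used here name no aligner, genome build, annotation or strand setting, so overlapping, antisense and near-identical genes are uncertain and no positions are printed. Gene types, chromosomes and gene order come from the RefSeq table of the Pink pepper assembly, matched by symbol (97 of the 105 genes). It holds no descriptions or sequences, so gene lists by description, promoter or protein could not be used. Libraries were grouped by the sex and location in the labels. The p-values measure only the spread between these libraries, in which plant, place and technical variation cannot be told apart.

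CPM, gaps and pair counts were computed with pandas 2.3.3. The male against female test used edgeR 4.0.16 in R 4.3.3 (TMM, filterByExpr, robust quasi-likelihood F-test, location as a term, Benjamini-Hochberg adjustment); SE is the fold change over the square root of F. DESeq2 1.42.0 was an alternative. Tested on simulated data for the male against female comparison (19041 genes after its own filter, against 19276 in the reported test), the edgeR test found 13 of 100 genes with a 4-fold and 86 of 100 with a 16-fold change, and called 4 of 18841 without one. The simulation gave a gene the same mean level in every library apart from the sex change, with no difference between locations. It therefore gives no error rate for the measured libraries. The members and lists were chosen with earlier results of these data known. Named genes are up to 4 with the widest gap per location and direction, those nearest the threshold and neighbouring members; others were chosen after their values were seen.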

Additional observations from a re-analysis of the deposited data

Results flagged for a closer look

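Genes outside the rule's floor were left out of the pair counts above. In all, 15 genes had at most 3 reads over both libraries of one location and at least 1 CPM in each of the other 4, or the reverse: 5 for Knox, 4 for Madison and 6 for Merick. The different-location pairs gave 2 to 7 such genes each and 27 in all, so the same-location counts lay within their range, the Merick count included. The counts therefore do not set same-location pairs apart. LOC115708671, protein coding on chromosome 3, had 0 reads in both Merick libraries and 365 to 931 reads (9.05 to 28.7 CPM) in each of the others. LOC115705917 and LOC115715282, long non-coding RNAs on chromosomes 9 and 3, also had 0 reads in both Merick libraries and 759 and 902 reads over the other 4. LOC115715873 on chromosome 5 was the reverse, with 440 reads over the Merick libraries and 1 read over the others. For Madison, LOC115720816, which the Pink pepper table does not hold, had 151 reads in the female, 83 in the male and 0 elsewhere. These genes were chosen after their values were seen, and whether a gene was absent from a plant or not transcribed was not tested.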

How the results depend on the processing

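The total of 105 genes became 402 at a fold of 1.5, 19 at 3, 8 at 4, 19 with a floor of 10 CPM and 323 with no floor in each library and 0.1 CPM added, while the mean over the different-location pairs, 13.2, became 53.2, 2.17, 0.17, 1.83 and 64.0. With no minimum fold, an alternative added after the data were seen, they were 3227 and 780. The Merick count was above every different-location pair at each of these settings (355 against 23 to 73 at 1.5, 19 against 0 to 5 at 3, 223 against 32 to 89 with no floor), and the Knox count exceeded the highest pair in none of them. Leaving out 1 library gave totals of 295 to 663 and pair means of 72.5 to 153. A pair that lost a library was then held by the other alone, and in 5 of 6 cases such a different-location pair exceeded the Merick count. Among pairs that kept both libraries, leaving out a Knox or Madison library gave 110 to 190 genes for Merick and 9 to 108 for the others, with the difference smallest without the Knox male (110 against 108). Both scalings and equal depth kept the total at 111 to 131. Of the 105 genes, 88 met the rule under TMM and 91 under relative log expression scaling.

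Genes called between the sexes numbered 2123, but 3339 without location as a replicate block, 7250 with DESeq2 and 0 to 6580 without 1 library; members called numbered 0, but 12 with DESeq2 and 0 to 16 without 1 library. The location term called 0 genes with edgeR and 689 with DESeq2. The cause was not tested. Depth limits the rule at low levels: 1 CPM is 26.9 reads in the shallowest library.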
